A study of Mus musculus with 9 samples.

Results

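Lgr4, Lgr5 and Lgr6 encode the receptors for R-spondins, and Znrf3 and Rnf43 encode the membrane-bound ubiquitin ligases that R-spondins act against. These 5 genes were taken by name from the 49585 genes in the files and followed in 9 RNA sequencing libraries from C57BL/6J mouse prostate. The cells were basal epithelial cells, isolated by flow cytometry and cultured as organoids during 5 days. RD7 is the basal organoid medium with R-spondin1 at 500 ng/ml and dihydrotestosterone (DHT), the potent androgen, at 100 nM. R is the same medium with R-spondin1 at 500 ng/ml and without DHT, and BM is the medium alone. All groups had advanced DMEM/F12 with B27, HEPES, GlutaMAX, penicillin-streptomycin, N-acetylcysteine, EGF, the TGF-β receptor inhibitor A83-01, the BMP antagonist Noggin and the ROCK inhibitor Y-27632, and the labels name no Wnt ligand among the components. Each group has 3 libraries, and the labels do not say whether they came from separate animals, sorts or cultures, so p-values measure the spread between these samples only. Libraries are named by medium and replicate number (RD7 1 to RD7 3, R 1 to R 3, BM 1 to BM 3). No medium had DHT without R-spondin1.

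ZNRF3 and RNF43 mark Frizzled receptors with ubiquitin, and the marked receptors are taken from the cell surface and degraded. An R-spondin that binds an LGR receptor and one of these ligases together causes the ligase to be cleared, which leaves more Frizzled at the surface and raises the response to Wnt ligands. In the mouse intestine Lgr5, Rnf43, Znrf3 and Axin2 are themselves induced by Wnt/β-catenin signaling, so that the ligases form a negative feedback loop. Lgr5 is known as a marker of intestinal and hair follicle stem cells in the mouse, and Lgr6 of stem cells in mouse skin.

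Promoter sequences (250 bases before to 50 after the annotated start, 5′ to 3′ on the strand of the gene) are shown from RefSeq on GRCm38.p6 for the member genes held in that table. Lgr6 and Rnf43 are shown because both had lower transcript levels in RD7 than in R, and Lgr4 because it was the most abundant member. Capitals mark a match to AGAACA, the hexamer that makes up androgen and glucocorticoid receptor sites, on either strand.
Lgr6 promoter, chr1:135105227-135105526, minus strand: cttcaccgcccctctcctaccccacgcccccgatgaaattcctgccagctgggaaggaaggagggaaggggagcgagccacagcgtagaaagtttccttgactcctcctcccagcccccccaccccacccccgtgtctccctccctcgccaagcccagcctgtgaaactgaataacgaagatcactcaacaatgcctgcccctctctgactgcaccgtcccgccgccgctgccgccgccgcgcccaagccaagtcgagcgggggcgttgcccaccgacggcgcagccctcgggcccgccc
Rnf43 promoter, chr11:87662837-87663136, plus strand: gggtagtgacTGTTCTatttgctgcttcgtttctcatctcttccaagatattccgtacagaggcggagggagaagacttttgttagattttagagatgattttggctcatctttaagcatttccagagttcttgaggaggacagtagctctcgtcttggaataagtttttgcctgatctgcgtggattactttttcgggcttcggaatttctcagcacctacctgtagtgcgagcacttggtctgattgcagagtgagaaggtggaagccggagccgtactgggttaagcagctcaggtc
Lgr4 promoter, chr2:109917397-109917696, plus strand: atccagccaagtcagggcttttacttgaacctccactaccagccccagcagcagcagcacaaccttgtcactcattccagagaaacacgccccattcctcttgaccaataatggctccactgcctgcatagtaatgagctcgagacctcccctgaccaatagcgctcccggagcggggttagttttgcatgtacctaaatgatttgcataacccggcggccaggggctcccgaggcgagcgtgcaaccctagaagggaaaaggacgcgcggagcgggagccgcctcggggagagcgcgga
The only match in these windows was in Rnf43, on the reverse strand, with its first base at -240 from the start. Of the genes used below to check the treatments, Axin2 had a match at -152 and Fkbp5, the androgen-induced one, had none. AGAACA or its reverse complement TGTTCT was present in 19% of the 32851 promoters of the table. The TCF/LEF core CTTTGA, searched on both strands as CTTTGA or TCAAAG, was present in 16% of promoters and in none of these windows, nor in a further Rnf43 promoter, chr11:87699647-87699946, which also lacked AGAACA. The full androgen response element, an AGAACA and its reverse complement with 3 bases between them, which overlaps the hexamer, was in 3 of the 32851 promoters and in none of these. No letters outside these windows were searched. Lgr5 and Znrf3 are not in the table.

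Genes known to respond to each addition set the media apart. Axin2, a feedback inhibitor of Wnt signaling, stood at 3.97 ± 0.595 FPKM in RD7 and 4.28 ± 1.17 FPKM in R, against 0.351 ± 0.0381 FPKM in BM (SD, n = 3 each). Fkbp5, an androgen-induced gene, stood at 109 ± 16.3 FPKM in RD7, 4.29 ± 0.737 in R and 5.84 ± 1.22 in BM. FPKM is a read count divided by gene length and library depth, so that levels of different genes can be set side by side. Reads counted ranged from 6505859 in BM 1 to 24141017 in BM 2, and reads of each member were read back as whole numbers from FPKM and gene length. All 4 basal markers (Krt5, Krt14, Krt15 and Trp63) were present in every library, with a summed level of 8293 to 9397 FPKM in RD7, 9648 to 10262 in R and 6972 to 7875 in BM. Trp63, a small part of that sum, stood at 26.5 ± 6.06 FPKM in RD7, 44.3 ± 8.63 in R and 40.7 ± 10.1 in BM. In RD7 against R limma called Krt5 and Trp63 lower. In RD7 against BM it called Krt15 higher and Trp63 lower, and in R against BM Krt15 higher. The 5 luminal markers summed to 1591 to 1929 FPKM in RD7, 1663 to 1954 in R and 2134 to 2665 in BM. The 6 mesenchymal markers summed to 65.0 to 93.2 FPKM in RD7, 22.6 to 29.1 in R and 15.2 to 24.1 in BM. Most of that sum in RD7 and R was Dcn, at 76.6 ± 14.1 FPKM in RD7, 21.9 ± 2.71 in R and 4.79 ± 1.27 in BM. Acta2, at 1.29 ± 0.285 FPKM in RD7, 3.69 ± 0.984 in R and 12.4 ± 3.43 in BM, and Vim, at 0.0657 ± 0.0499, 0.236 ± 0.0554 and 1.37 ± 0.139 FPKM in RD7, R and BM, ran the other way, and in RD7 against R limma called Dcn higher and Acta2, Vim and Col1a1 lower. The 4 immune markers summed to 2.04 to 4.09, 2.87 to 3.74 and 0.856 to 1.61 FPKM in RD7, R and BM, with Lyz2 at 0 in BM and Cd3e at 0 in R. The 3 endothelial markers summed to 0.185 to 0.295, 0.161 to 0.29 and 0.074 to 0.183 FPKM, with Cdh5 and Kdr at 0 in RD7, Kdr at 0 in R and Cdh5 at 0 in BM. The 4 seminal vesicle markers summed to 0.503 to 1.07 FPKM in RD7, 0.0431 to 0.16 in R and 0.085 to 0.269 in BM. Pate4 was at 0 in RD7, Svs2 and Svs4 were at 0 in R and Svs4 was at 0 in BM. None of these 4 passed the filter on low values, so they were not tested. The part of these markers in the results below was not tested, and in bulk RNA fewer cells of a type and less RNA per cell cannot be told apart.

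Among the 3 media, Lgr5, a receptor gene known as a stem cell marker, was well above a few reads per library in R alone. Lgr5 (ENSMUSG00000020140, chromosome 10, 115450311 to 115587780, minus strand, GRCm38) stood at 0.0109, 0 and 0.0288 FPKM in RD7 1 to 3 and at 0.714, 0.997 and 0.972 FPKM in R 1 to 3, against 0.015, 0.00807 and 0.00497 FPKM in BM 1 to 3. These levels rest on 7 reads over the RD7 libraries, 571 over the R libraries and 4 over the BM libraries. Every R library lay far above every RD7 and BM library, while RD7 and BM overlapped. Differences were tested with limma over all genes that passed a filter on low values, and a gene was called where its Benjamini-Hochberg adjusted p was under 0.05. Lgr5 rose in R against BM (log2 fold change 1.45 ± 0.11 SE on the log2(FPKM + 0.5) scale, limma adjusted p = 1.3e-05), with mean FPKM 95.8 times that of BM. In reads scaled to library depth the R to BM ratio was 118, with a 95% exact interval of 45.8 to 434 that covers counting error only. Lgr5 fell in RD7 against R (-1.44 ± 0.11, limma adjusted p = 4.5e-06), with a ratio of depth-scaled reads of 0.0138 (counting interval 0.00554 to 0.0287).

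Between RD7 and BM no difference in Lgr5 was detectable at this depth. The log2 fold change was 0.01 ± 0.11 (limma adjusted p = 0.939), and the counting interval of the ratio, 0.415 to 7.6, spans both lower and higher values. BM libraries held 1 or 2 reads each and RD7 libraries 0 to 5. At 3 reads, Lgr5 would stand at 0.0153 to 0.0173 FPKM in the RD7 libraries and at 0.0121 to 0.0449 FPKM in the BM libraries. The size of the log2 fold change depends on the pseudocount: for R against BM it was 3.17 with a pseudocount of 0.1, 0.90 with 1 and 6.29 with limma-voom on reads, and for RD7 against R it was -3.13, -0.90 and -6.38. Lgr5 passed the filter on low values through the R libraries alone, so under this filter it was tested only because it was high in R.

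**Figure D1:**
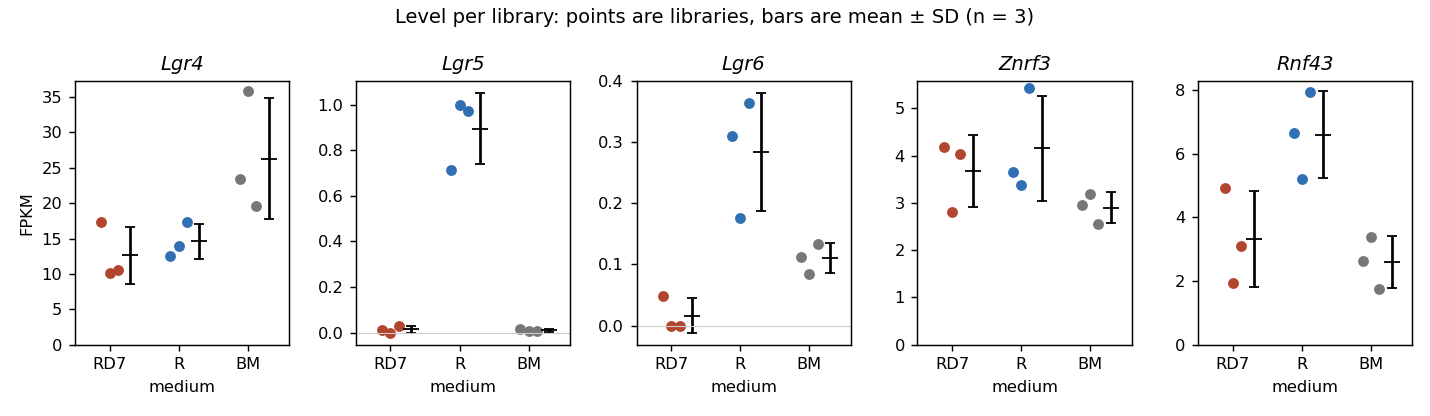
Levels in FPKM (y axis, a separate linear scale per gene) of the 5 genes in the RD7, R and BM libraries (x axis). Points are libraries and bars are mean ± SD with n = 3; Lgr5 reaches 0.714 to 0.997 FPKM in R and at most 0.0288 FPKM in the other media.

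Lgr6, the receptor gene known from skin stem cells, was also highest in R and fell to near 0 in RD7. Lgr6 (ENSMUSG00000042793, chromosome 1, 134983301 to 135105276, minus strand) stood at 0.0489, 0 and 0 FPKM in RD7 1 to 3 and at 0.311, 0.176 and 0.364 FPKM in R 1 to 3, against 0.112, 0.0846 and 0.134 FPKM in BM 1 to 3. The libraries held 6 reads in all in RD7, 116 in R and 37 in BM. RD7 was lowest, BM intermediate and R highest, with no overlap between any pair of media. Lgr6 fell in RD7 against R (log2 fold change -0.60 ± 0.11, limma adjusted p = 0.00252), with a ratio of depth-scaled reads of 0.0584 (counting interval 0.021 to 0.131). Against BM, R had 2.57 times the mean FPKM and a log2 fold change of 0.35 ± 0.11 that was not called (limma adjusted p = 0.0713). It was called when the trend of log2 values with gene length was taken out of each library (adjusted p = 0.0203) and without R 2 (0.0333). RD7 against BM was not called either (-0.24 ± 0.11, limma adjusted p = 0.0906), with a ratio of depth-scaled reads of 0.151 (counting interval 0.0522 to 0.361), and was called with a pseudocount of 0.1 (-0.87, adjusted p = 0.0259) and with limma-voom (-3.47, adjusted p = 0.00899). Lgr6 passed the filter on low values through the R and BM libraries.

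Lgr4, the receptor gene with the widest known tissue expression of the family, was the main receptor gene in every medium, and its highest levels were in BM. Lgr4 (ENSMUSG00000050199, chromosome 2, 109917647 to 110014257, plus strand) stood at 17.3, 10.2 and 10.5 FPKM in RD7 1 to 3 and at 12.6, 13.9 and 17.4 FPKM in R 1 to 3, against 23.4, 35.9 and 19.6 FPKM in BM 1 to 3. All BM libraries lay above all R and RD7 libraries, and R and RD7 overlapped. Lgr4 fell in RD7 against BM, to 12.7 ± 4.01 FPKM in RD7 against 26.3 ± 8.53 FPKM in BM (log2 fold change -1.02 ± 0.26, limma adjusted p = 0.0105). In R it averaged 14.6 ± 2.46 FPKM, and R against BM was not called (-0.79 ± 0.26, limma adjusted p = 0.0852), except without BM 3 (-0.98, adjusted p = 0.0234). RD7 against R was not called (-0.23 ± 0.26, limma adjusted p = 0.53).

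By level, the order in RD7 was Lgr4, Znrf3, Rnf43 and then Lgr6 and Lgr5, where Znrf3 and Rnf43 overlapped, as did Lgr6 and Lgr5. In R it was Lgr4, Rnf43, Znrf3, Lgr5 and Lgr6, where the ranges of Rnf43 and Znrf3 overlapped. In BM it was Lgr4, Znrf3, Rnf43, Lgr6 and Lgr5, where Znrf3 and Rnf43 overlapped.

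Among the 3 receptors, Lgr4 held nearly all of the summed FPKM, and the share of Lgr5 and Lgr6 was highest in R. Lgr5 made up 0.0627%, 0% and 0.273% of the summed level in RD7 1 to 3 and 5.25%, 6.6% and 5.2% in R 1 to 3, against 0.0636%, 0.0224% and 0.0251% in BM 1 to 3. Lgr6 made up 0.282%, 0% and 0% in RD7 and 2.28%, 1.16% and 1.95% in R, against 0.476%, 0.235% and 0.677% in BM. The order of the receptors by level was therefore Lgr4, Lgr5, Lgr6 in each R library and Lgr4, Lgr6, Lgr5 in each BM library. In RD7 the order of Lgr5 and Lgr6 differed between libraries, and both rest on few reads.

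Rnf43, a ligase gene that is induced by Wnt signaling in the mouse intestine, was higher in R than in either other medium, with calls that depended on single libraries. Rnf43 (ENSMUSG00000034177, chromosome 11, 87662722 to 87735539, plus strand) stood at 4.92, 1.93 and 3.09 FPKM in RD7 1 to 3 and at 6.66, 5.19 and 7.93 FPKM in R 1 to 3, against 2.63, 3.38 and 1.76 FPKM in BM 1 to 3. Each R library lay above each RD7 and each BM library, and RD7 and BM overlapped. Rnf43 rose 2.55-fold in R against BM (log2 fold change 1.22 ± 0.30, limma adjusted p = 0.0286) and fell in RD7 to 0.502 of its mean FPKM in R (-0.95 ± 0.30, limma adjusted p = 0.0356). The call for R against BM was lost without BM 1 (limma adjusted p = 0.0807), R 1 (0.0963), R 3 (0.0942) or RD7 3 (0.0509), with no filter (0.0745) and with the replicate block (0.0536). The call for RD7 against R was lost without R 1 (0.0851), R 3 (0.121), RD7 2 (0.127) or RD7 3 (0.0916), with no filter (0.0807) and with the replicate block (0.0559). RD7 against BM was not called (0.26 ± 0.30, limma adjusted p = 0.486).

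Znrf3, the other ligase gene, was not called in any comparison. Znrf3 (ENSMUSG00000041961, chromosome 11, 5276324 to 5444847, minus strand) stood at 4.17, 2.8 and 4.04 FPKM in RD7 1 to 3 and at 3.66, 3.38 and 5.43 FPKM in R 1 to 3, against 2.96, 3.19 and 2.55 FPKM in BM 1 to 3. The R libraries all lay above the BM libraries, and RD7 overlapped with both. Znrf3 was not called in R against BM (log2 fold change 0.43 ± 0.21, limma adjusted p = 0.215), in RD7 against R (-0.15 ± 0.21, limma adjusted p = 0.606) or in RD7 against BM (0.28 ± 0.21, limma adjusted p = 0.275). With the length trend removed it was called in R against BM (0.61, adjusted p = 0.0343) and in RD7 against BM (0.55, adjusted p = 0.0188).

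Rnf43 was compared with Znrf3 within each library. The plain FPKM ratio removes any scaling between libraries, whereas the tested log2 ratio, with 0.5 added to each FPKM, does not remove it fully. The ratio of Rnf43 to Znrf3 FPKM was 1.18, 0.69 and 0.764 in RD7 1 to 3 and 1.82, 1.53 and 1.46 in R 1 to 3, against 0.887, 1.06 and 0.689 in BM 1 to 3. Every R library had more Rnf43 than Znrf3 and a higher ratio than every RD7 or BM library. On the log2(FPKM + 0.5) scale the ratio averaged 0.61 ± 0.15 in R against -0.17 ± 0.25 in BM (difference 0.78, two-sided exact permutation p = 0.1, the smallest that 3 against 3 allows). It averaged -0.19 ± 0.35 in RD7 against 0.61 ± 0.15 in R (difference -0.80, exact permutation p = 0.1, also the smallest), and RD7 and BM differed by -0.02 (exact permutation p = 0.9). The summed FPKM of both ligases over that of the 3 receptors was 0.523, 0.463 and 0.676 in RD7 and 0.758, 0.567 and 0.715 in R, against 0.237, 0.182 and 0.218 in BM. Both media with R-spondin1 thus lay above BM, with no overlap, and overlapped with each other. The summed ligase FPKM alone was 9.09, 4.73 and 7.13 in RD7 and 10.3, 8.58 and 13.4 in R, against 5.59, 6.57 and 4.31 in BM. In this sum RD7 overlapped with BM and R lay above BM. The summed receptor FPKM was 17.4, 10.2 and 10.6 in RD7 and 13.6, 15.1 and 18.7 in R, all below 23.6, 36.0 and 19.8 in BM.

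**Figure D2:**
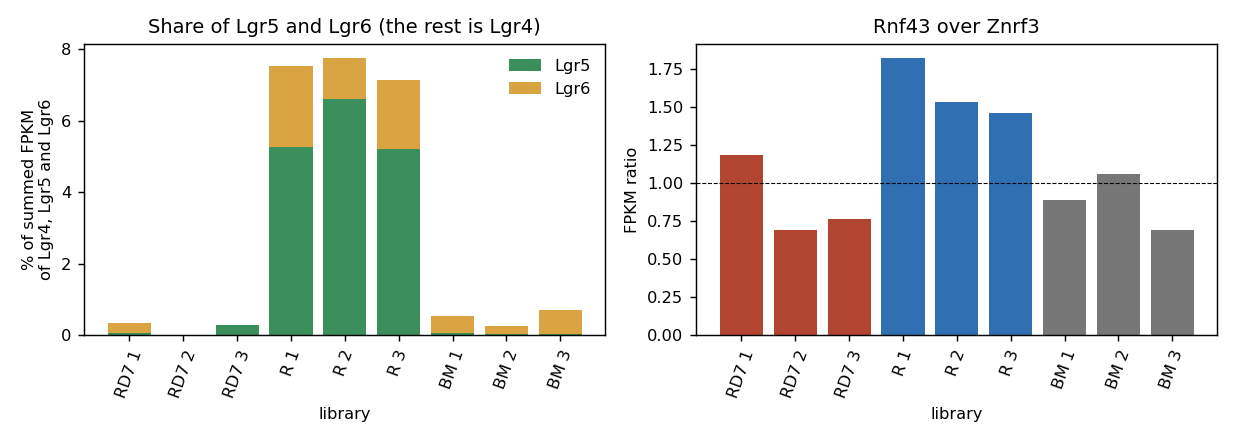
Left, the share (percent, y axis) of Lgr5 and Lgr6 in the summed FPKM of Lgr4, Lgr5 and Lgr6 in each library (x axis), as stacked bars that start at 0; right, the ratio of Rnf43 to Znrf3 FPKM in each library, with a dashed line at 1. The share of Lgr5 is 5.2% to 6.6% in R and at most 0.273% elsewhere, and the ratio is 1.46 or more in every R library, against at most 1.18 in RD7 and 1.06 in BM.

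Over the 5 genes, Lgr5 and Rnf43 were called higher and none lower in R against BM, where limma called 10% of the 15867 genes tested (4.39% higher and 5.64% lower). Lgr5, Lgr6 and Rnf43 were called lower and none higher in RD7 against R, where 31.1% of genes were called (13.4% higher and 17.7% lower), and Lgr4 was the 1 gene called in RD7 against BM, lower, where 47% were called (21.6% higher and 25.4% lower). With so many genes called in the DHT comparisons, a share of 3 of 5 or 1 of 5 is not by itself a result about this family. The groups did not overlap for 5 of the 5 genes in R against BM, against 30.3% of all genes tested, for 3 of 5 in RD7 against R (51.8%) and for 2 of 5, Lgr4 and Lgr6, in RD7 against BM (52.4%). R against BM and RD7 against R share the R libraries, so a high value in R enters both, with opposite sign. The median log2 fold change of the 5 genes was 0.43 in R against BM, -0.60 in RD7 against R and 0.01 in RD7 against BM, beside 0.02, -0.09 and -0.07 over all genes tested. The direction of the 5 genes' called changes was the same with median-of-ratios scaling, although that scaling moved the share of higher calls over all genes in RD7 against R to 53.6% of the calls, against 43.0% without it.

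**Figure D3:**
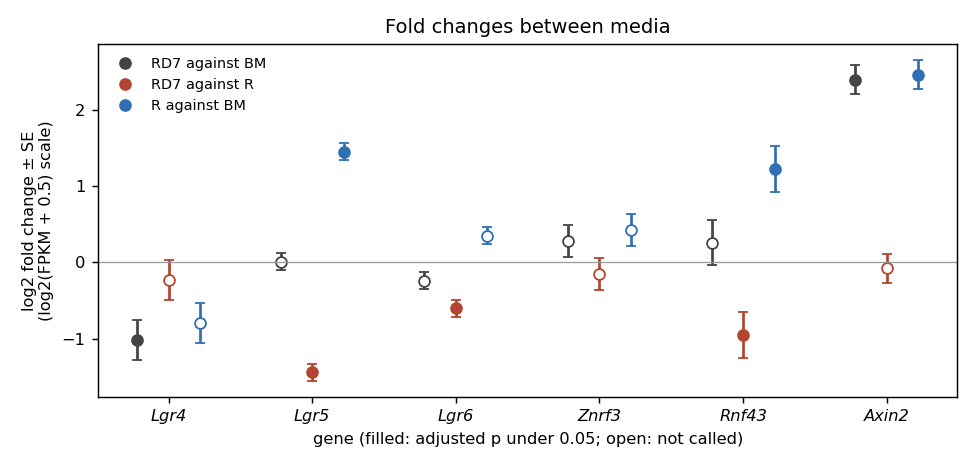
Log2 fold change ± SE on the log2(FPKM + 0.5) scale (y axis) of the 5 genes and Axin2 (x axis) in RD7 against BM, RD7 against R and R against BM. Filled points have a limma adjusted p under 0.05; Lgr5 is at 1.45 in R against BM and at -1.44 in RD7 against R, while Axin2 is not called in RD7 against R.

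Axin2 was not called in RD7 against R (log2 fold change -0.08 ± 0.19, limma adjusted p = 0.793), where Lgr5 and Rnf43 were. The ratio of Rnf43 to Axin2 FPKM was 1.06, 0.554 and 0.813 in RD7 1 to 3 and 1.72, 1.55 and 1.42 in R 1 to 3, against 6.72, 9.76 and 5.58 in BM 1 to 3. It was lowest in RD7 and highest in BM, where Axin2 itself was low. The ratio of Lgr5 to Axin2 FPKM was 0.00235, 0 and 0.0076 in RD7 and 0.184, 0.297 and 0.174 in R, against 0.0383, 0.0233 and 0.0158 in BM. It was highest in R as a plain ratio, with few Lgr5 reads in RD7 and BM. With 0.5 added to each FPKM the order changed: the log2 ratio averaged -3.12 in RD7 and -1.76 in R, against -0.74 in BM, the highest. These ratios were chosen after the values were seen and restate the levels given above. On the log2(FPKM + 0.5) scale the two-sided exact permutation p was 0.1 for both ratios in each pair of media, the smallest that 3 against 3 allows. Groups that do not overlap always give this p, so it adds no support. For the ratio of Znrf3 to Axin2, also chosen afterwards, RD7 and R overlapped (exact permutation p = 0.6), while BM lay above both (exact permutation p = 0.1 each).

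The genes for R-spondins, the ligands, had few reads or none. Rspo1 was the only one that passed the filter, at 0.236 ± 0.133 FPKM in RD7 and 0.35 ± 0.182 FPKM in R, against 0.213 ± 0.163 FPKM in BM, and it was not called in any comparison. Rspo2 and Rspo4 were listed at 0 in all 9 libraries, and Rspo3 had 1 read, in RD7 3. Rspo1 levels overlapped between all media and rest on 25 reads over the RD7 libraries, 40 over the R libraries and 15 over the BM libraries.

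Frizzled receptors, which the ligases remove from the surface, and the co-receptors changed in both directions with R-spondin1. Of 15 genes, 2 rose, 2 fell and 11 were not called in R against BM (median log2 fold change -0.26, beside 0.02 over all genes, of which 4.39% were called higher and 5.64% lower). Fzd10 rose to 4.31 ± 1.22 FPKM in R against 0.874 ± 0.271 in BM (limma adjusted p = 7.8e-04), and Ryk, a Wnt-binding receptor of another family, rose to 49.4 ± 1.53 against 34.9 ± 0.297 FPKM. Fzd4 fell to 1.6 ± 0.121 FPKM in R against 3.76 ± 0.917 in BM, and Ror1, a receptor for noncanonical Wnt ligands, to 0.571 ± 0.0709 against 1.26 ± 0.307. These calls depended in part on single libraries: that of Ryk was lost without R 1, R 2 or R 3 and with the replicate block (limma adjusted p up to 0.0799), and that of Ror1 without BM 2, R 1 or R 2 and with no filter (up to 0.0815).

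With DHT added, 1 of the 15 rose, 7 fell and 7 were not called in RD7 against R (median -0.36, beside -0.09 over all genes, of which 13.4% were called higher and 17.7% lower). Fzd10 fell to 0.911 ± 0.322 FPKM in RD7 against 4.31 ± 1.22 in R (limma adjusted p = 3.4e-04), Fzd7 to 10.1 ± 3.26 against 30.2 ± 4.45, and Ryk to 30.3 ± 1.1 against 49.4 ± 1.53, whereas Fzd9 rose to 1.62 ± 0.136 FPKM against 0.568 ± 0.132. In RD7 against BM 1 rose, 8 fell and 6 were not called (median -0.68, beside -0.07 over all genes, of which 21.6% were called higher and 25.4% lower). The lowest adjusted p there were those of Ror1 (0.243 ± 0.103 FPKM in RD7 against 1.26 ± 0.307 in BM), Fzd9, Fzd4 (1.19 ± 0.232 against 3.76 ± 0.917) and Fzd7 (10.1 ± 3.26 against 31.1 ± 7.62). The co-receptor Lrp6 fell to 3.3 ± 0.566 FPKM in RD7 against 5.7 ± 1.05 in BM, and Lrp5 was not called in any comparison.

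Genes for proteins reported to bind or modify the receptors and ligases were called as follows: 1 of 12 in R against BM, beside 10% of all genes tested, 2 of 12 in RD7 against R, beside 31.1%, and 6 of 12 in RD7 against BM, beside 47%. In R against BM Csnk1a1, a casein kinase gene, rose to 60.0 ± 2.46 FPKM in R against 43.0 ± 4.8 in BM and none fell (median -0.25), and its call (limma adjusted p = 0.0496) was lost in 14 of 20 alternatives, among them leaving out BM 1, BM 2, RD7 1, RD7 3 or any R library (up to 0.191). In RD7 against R none rose and 2 fell (median -0.34), Csnk1a1 to 39.2 ± 4.58 FPKM against 60.0 ± 2.46, and Usp42, a deubiquitinase gene, to 2.82 ± 0.813 against 4.7 ± 0.944. In 12 of 20 alternatives, among them leaving out BM 2, RD7 2, RD7 3 or any of the R libraries, Usp42 was not called (limma adjusted p up to 0.167). In RD7 against BM none rose and 6 fell (median -0.51), led by the ubiquitin ligase gene Nedd4 (47.6 ± 10.2 FPKM in RD7 against 90.7 ± 15.7 in BM, limma adjusted p = 0.00322), Usp42 (2.82 ± 0.813 against 5.64 ± 1.12), the scaffold gene Iqgap1 (15.1 ± 4.42 against 29.9 ± 8.32) and the deubiquitinase gene Usp8 (15.3 ± 3.6 against 24.7 ± 4.32), where the Usp8 call was lost without BM 2, RD7 2 or RD7 3 (up to 0.0569).

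Of 7 genes for β-catenin and the complex that destroys it, limma called 0 in R against BM (median -0.16), beside 10% of all genes tested. A count of 0 of 7 is near that share and is not by itself a result about these genes. Of the 7, 2 had an unadjusted limma p under 0.05, and limma-voom called 1, Ctnnb1 (adjusted p = 0.0497). In RD7 against R, 1 of 7 fell and none rose (median -0.14), beside 17.7% of all genes called lower: Ctnnb1, which encodes β-catenin, stood at 223 ± 46.7 FPKM in RD7 against 339 ± 10.3 in R, a call lost without RD7 2, RD7 3 or any R library (limma adjusted p up to 0.0798). In RD7 against BM 3 of 7 fell and none rose (median 0.06), beside 25.4% of all genes called lower and 21.6% called higher: Ctnnb1 (223 ± 46.7 against 488 ± 84.7 FPKM, limma adjusted p = 7.5e-04), Axin1 (25.1 ± 3.42 against 36.1 ± 5.82) and Apc (2.42 ± 0.594 against 4.49 ± 1.99). The Axin1 call was lost without BM 1, BM 2, RD7 2 or RD7 3 (up to 0.0929), and the Apc call in 14 of 20 alternatives, among them leaving out BM 2, RD7 1, RD7 2 or any R library (up to 0.141). Ctnnb1 shares 15.1% of its exon bases with other genes, and the kit does not mark strand.

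Genes known as Wnt targets moved in both directions with DHT added. Of 17 listed, 16 passed the filter, and of these, 8 rose, 1 fell and 7 were not called in R against BM (median 0.44), and 2 rose, 10 fell and 4 were not called in RD7 against R (median -0.60). Over all genes, 4.39% were called higher and 5.64% lower in R against BM, and 13.4% higher and 17.7% lower in RD7 against R. Between R and BM, Wif1, which encodes a secreted Wnt inhibitor, rose to 104 ± 6.83 FPKM in R against 6.24 ± 0.661 in BM (limma adjusted p = 2.3e-07), Notum to 1.67 ± 0.458 against 0.184 ± 0.108 FPKM, and Sp5, a transcription factor gene, fell to 2.72 ± 0.325 against 7.21 ± 0.889 FPKM. With DHT added, Notum, which inactivates Wnt ligands, stood at 0.143 ± 0.0818 FPKM in RD7 against 1.67 ± 0.458 in R (limma adjusted p = 8.6e-05), Apcdd1, a membrane-bound Wnt inhibitor, at 3.54 ± 1.56 against 22.6 ± 0.861 (7.5e-05), and the transcription factor gene Tcf7 at 18.8 ± 2.44 against 38.6 ± 2.77 FPKM (2.9e-04). Lef1, a further transcription factor gene, instead rose to 1.13 ± 0.227 FPKM in RD7 against 0.388 ± 0.0805 in R, and Sp5 rose to 8.6 ± 1.13 against 2.72 ± 0.325 FPKM. In RD7 against BM 4 rose, Wif1, Lef1, Axin2 and Tnfrsf19, and 6 fell, Cd44, Apcdd1, Ephb2, Ephb3, Ascl2 and Ccnd1 (median -0.11), beside 21.6% of all genes called higher and 25.4% lower. Cd44, an adhesion receptor gene, stood at 45.8 ± 6.89 FPKM in RD7 against 116 ± 14.2 in BM (limma adjusted p = 9.6e-05). Notum shares 38.1% of its exon bases with antisense genes and Lef1 shares 13.7%, so their reads cannot be assigned with certainty. Without BM 2, R 1 or R 2, Apcdd1 was not called in R against BM (limma adjusted p up to 0.0678).

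**Figure D4:**
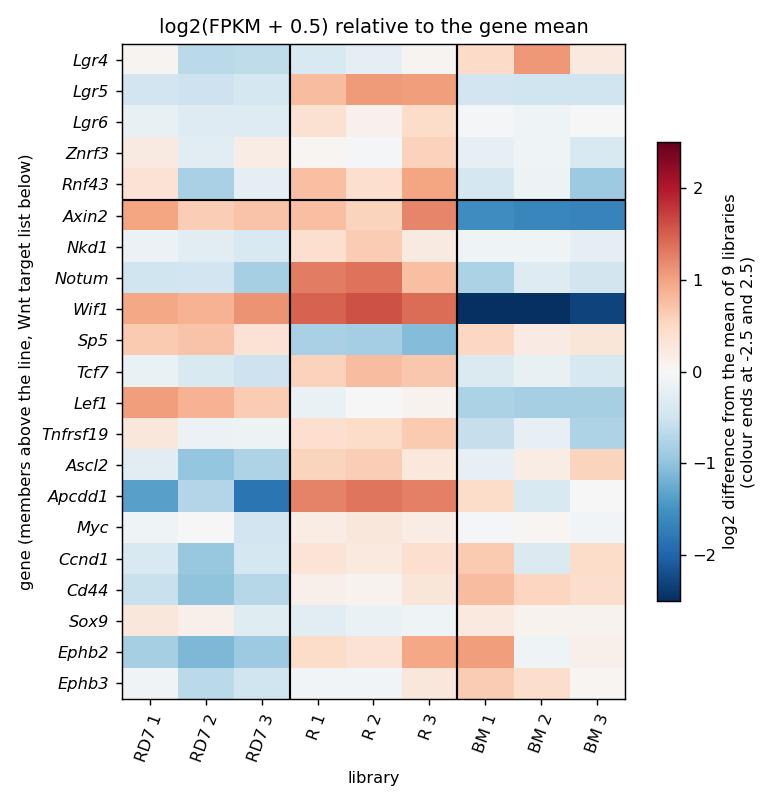
Log2(FPKM + 0.5) of the 5 genes (above the line) and of the 16 Wnt target genes tested (below it) in each library (x axis), as the difference from the mean of the gene over the 9 libraries (colour, log2 units). Lgr5, Notum, Tcf7 and Apcdd1 are highest in R, while Axin2, Wif1 and Lef1 are high in RD7 and low in BM.

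The genes whose level followed each member most closely over the 9 libraries were ranked by the root mean square difference of centred log2(FPKM + 0.5) values among 15862 other genes. For Lgr5, whose own values varied by 0.684 on that measure, they were Golga7b (0.120), at 0.0953 ± 0.0538 FPKM in RD7, 1.15 ± 0.12 in R and 0.0343 ± 0.0594 in BM, Tmprss11g (0.138) and Lrrn1 (0.139), which was listed at 0 in RD7 and stood at 1.03 ± 0.132 in R and 0.11 ± 0.0509 in BM. For Rnf43 (own variation 0.632) they were Hunk (0.176), at 4.11 ± 1.01 FPKM in RD7, 9.72 ± 1.54 in R and 3.42 ± 0.844 in BM, Hs3st3b1 (0.200) and Mxd1 (0.238). For Lgr4 (0.533) they were Acsl4 (0.091), Prkci (0.096) and Ralgapa2 (0.124), and Acsl4 stood at 18.6 ± 4.24 FPKM in RD7, 21.4 ± 3.65 in R and 36.5 ± 12.2 in BM. For Lgr6 (0.263) they were Amdhd1 (0.086), Apobr (0.091) and Adamts6 (0.093). With a pseudocount of 0.1, 0 of the 3 genes were the same for Lgr5 and for Lgr6, 2 for Lgr4 and 3 for Rnf43. Likeness on this measure describes these libraries and was not tested.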

How the data were processed

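RNA was sequenced in 9 libraries, 3 in each of RD7, R and BM, grouped by sample title. The deposited values are FPKM computed by the authors, 1 value per gene and library. Per the labels' protocols, polyadenylated RNA was amplified with a SMART-Seq kit, which carries no strand or molecular identifiers. Tools listed in the submitters' processing notes are STAR 2.6.1a, CASAVA 1.9, edgeR 3.24.1 and featureCounts, and the build listed is GRCm38; the annotation release and strand setting are not given in the sources used here.

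Symbols and merged exon lengths came from GENCODE M21 (GRCm38), matched by gene identifier for 99.5% of genes. Reads were read back as FPKM times length times library total: the product was whole within 0.01 of a read for 22974 of 26813 genes above 0, a length was fitted for 3625, and 214 were rounded, so that the sums came to 100.176% to 100.344% of the library totals. Genes reaching 0.5 CPM in 3 or more libraries, 15867 in number, were kept, and their log2(FPKM + 0.5) was tested with limma 3.58.1 in R 4.3.3 (all 9 libraries in 1 fit with a mean for each medium, leaving 6 residual degrees of freedom; trend and robust settings). Tests are two-sided, p-values carry the Benjamini-Hochberg adjustment across all 15867 genes, and called means an adjusted p under 0.05. The pseudocount shrinks the fold changes of low genes. The test was also run on simulated data, which were simpler than these data, and the outcome is not reported here. No result above rests on that run. Python 3.11.15, scipy 1.17.1 and matplotlib 3.10.9 were used for exact tests and plots.

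The 5 members and the gene lists were chosen with earlier results of these data known. The values of 1 marker list are not reported here. Named genes were the members, the treatment checks Axin2 and Fkbp5, up to 4 called genes per list and comparison with the lowest adjusted p, and the 3 nearest genes of each called member; Lrp5, Lrp6, the Rspo genes and Wnt targets beyond these were named after their values were seen. Alternatives were 2 pseudocounts (0.1 and 1), no filter, median-of-ratios scaling, removal of a length trend, limma-voom with TMM on the reads read back, only the 2 groups compared, a replicate block and leaving out each library. Leaving out each R library with the full set of genes was added after seeing the data. Amplified reads are not independent molecules, so counting intervals and the floor of 3 reads leave out all other error.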

Additional observations from a re-analysis of the deposited data

How the results depend on the processing

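Lgr5 kept its direction and its call in R against BM and in RD7 against R in all 17 alternatives that tested it, and Lgr6 in RD7 against R and Lgr4 in RD7 against BM in all 20. Lgr5 passed the planned filter only through R, where it was high, so its record over the alternatives is not independent support. With no filter the limma adjusted p of Lgr5 was 2.3e-04 in R against BM and 8.2e-05 in RD7 against R. Lgr5 could not be tested without an R library under the planned filter, because it then no longer had 3 libraries at 0.5 CPM; with the full set of genes it was called each time (adjusted p up to 1.2e-04 in R against BM). The number of members called in R against BM was 2, 1 with no filter, 1 with the replicate block, 4 with the length trend removed, 0 to 3 when 1 library was left out, and 1 without R 1 or R 3 with the full set of genes. In RD7 against R it was 3, and 1 to 3 when 1 library was left out. Rnf43 also lost its call there with no filter (limma adjusted p = 0.0807) and with the replicate block (0.0559), while Lgr5 and Lgr6 kept theirs. The next counts are again of members called. In RD7 against BM it was 1, and 2 with a pseudocount of 0.1, with the length trend removed or with limma-voom. The genes called over the whole table in R against BM ranged from 889 without R 1 to 3340 without BM 3 (1591 in all libraries). With the full set of genes they were 930 without R 1 and 940 without R 2. In RD7 against R they ranged from 3138 without RD7 2 to 6044 with only the 2 groups compared (4937 in all libraries), with 5729 without BM 3. With the full set they were 3203 without R 2 and 3186 without R 3. In RD7 against BM they ranged from 4686 without RD7 2 to 8444 without BM 3 (7455 in all libraries). The log2 ratio of Rnf43 to Znrf3 kept its sign in R against BM and in RD7 against R when 1 library was left out; in RD7 against BM it was -0.22 to 0.11, positive without BM 2 (0.10), RD7 2 (0.11) or RD7 3 (0.06). The replicate block ended both calls of Rnf43 and lowered the genes called to 1161 in R against BM, 3884 in RD7 against R and 6298 in RD7 against BM. No label says that the numbers pair the samples. Same-numbered libraries deviated from their group means with correlations across genes of -0.521 to 0.272. Libraries with different numbers reached -0.578 (BM 3 and RD7 1) and 0.578 (BM 3 and R 1). With 3 libraries per group these correlations cannot decide whether same-numbered libraries share more than a number. The cause of lost calls was not tested. Lgr5 and Lgr6 are limited by depth: outside R, no library held more than 18 reads of either.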
